A study of Mus musculus with 10 samples.

Results

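Integrins are the receptors with which cells hold on to the extracellular matrix or to other cells, and laminins are matrix proteins that many of them bind. The genes described here were all protein-coding genes of the mouse annotation whose symbols begin with Itga, Itgb, Lama, Lamb or Lamc and follow the subunit naming, which gave 37 of 21938 protein-coding genes. They comprised 18 subunits of matrix-binding integrins, 7 subunits of leukocyte integrins, the platelet subunit Itga2b and 11 laminin chains.

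Chromatin accessibility was measured by ATAC-seq, in which the Tn5 transposase inserts adapters into open chromatin and regions with many insertions are called as sites. The cells were immortalized mouse embryo fibroblasts (iMEF) in which the endogenous Ash2l gene had lost exon 4 and which lived on a lentiviral fusion of a mutant FKBP12 domain, 2 HA tags and human ASH2L (FKBP-HA2-ASH2L), which belongs to the core of the KMT2 complexes that modify histone H3 at promoters. All groups shared this background and, per the study, all were cells of NG3, a single clone obtained by limiting dilution. The 5 groups were untreated cells (titled WT, with ethanol as the vehicle in the methods) and cells exposed for 30 min, 4 h, 8 h or 24 h to dTAG-13, a PROTAC that brings the fusion protein to Cereblon, part of an E3 ubiquitin ligase, and so leads to its degradation, with 2 replicates in each group. The values analysed are the positions of 153924 sites found over all 10 libraries together. They carry no signal for a library, so neither an effect of dTAG-13 on these genes nor the error among replicates can be given, and the depth is unknown. Sites that changed at single time points were not analysed here. Counts are therefore set beside those of all protein-coding genes, without a test, since genes of a family are not replicates. In a bulk preparation, a site open in few cells and a site weakly open in all cells cannot be told apart.

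Each integrin is a pair of 1 alpha and 1 beta chain, and the alpha chain largely sets the ligand. Pairs with Itgb1 bind collagens, laminins, fibronectin and other matrix proteins, pairs with Itgav bind proteins with the tripeptide arginine-glycine-aspartate (RGD), and the pairs with Itgb2 or Itgb7 belong to blood cells, where they hold leukocytes to vessel walls, to each other and to target cells. A laminin is a trimer of an alpha, a beta and a gamma chain that is laid down in basement membranes. Fibroblasts attach to matrix through integrins and make some laminin chains themselves, whereas the leukocyte integrins are textbook markers of the haematopoietic lineage.

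A gene was counted as covered when a site came within 1 kb of any of its annotated starts. Of the 37 genes, 34 (91.9%) were covered, beside 70.8% of all protein-coding genes and 81.6% of the protein-coding genes of at least 10 kb, the length class to which all 37 belonged. The 3 genes without such a site, Itgam, Itgad and Itgae, are all leukocyte alpha chains. Thus all 18 matrix-binding integrin genes and all 11 laminin genes were covered, and of the 7 leukocyte integrin genes only Itgal, Itgax, Itgb2 and Itgb7. With the outermost start alone, 30 of 37 genes (81.1%) had a site, beside 66.2% of all protein-coding genes and 75.7% of those of at least 10 kb, and the count was 17 of 18 for the matrix-binding, 3 of 7 for the leukocyte and 10 of 11 for the laminin genes.

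Because the annotation lists many short and incomplete transcripts, the starts of the curated RefSeq transcripts were also used. By these, 32 of 37 genes had a site within 1 kb, beside 70% of 21000 RefSeq coding genes, and 30 of 37 had a start inside a site, beside 64%. All 18 matrix-binding integrin genes had a start inside a site, as had 10 of the 11 laminin genes. The exception was Lamb3, a beta chain of epithelial basement membranes, whose nearest site ended 288 bp away. Among the leukocyte integrins the start of Itgax and that of Itgb7 lay inside a site, Itgb2 had a site 705 bp from its start, and the remaining 4 were 1819 bp (Itgae), 2024 bp (Itgad), 5459 bp (Itgal) and 11320 bp (Itgam) from the nearest site. The curated start of Itga2b was 2098 bp from a site.

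**Figure D1:**
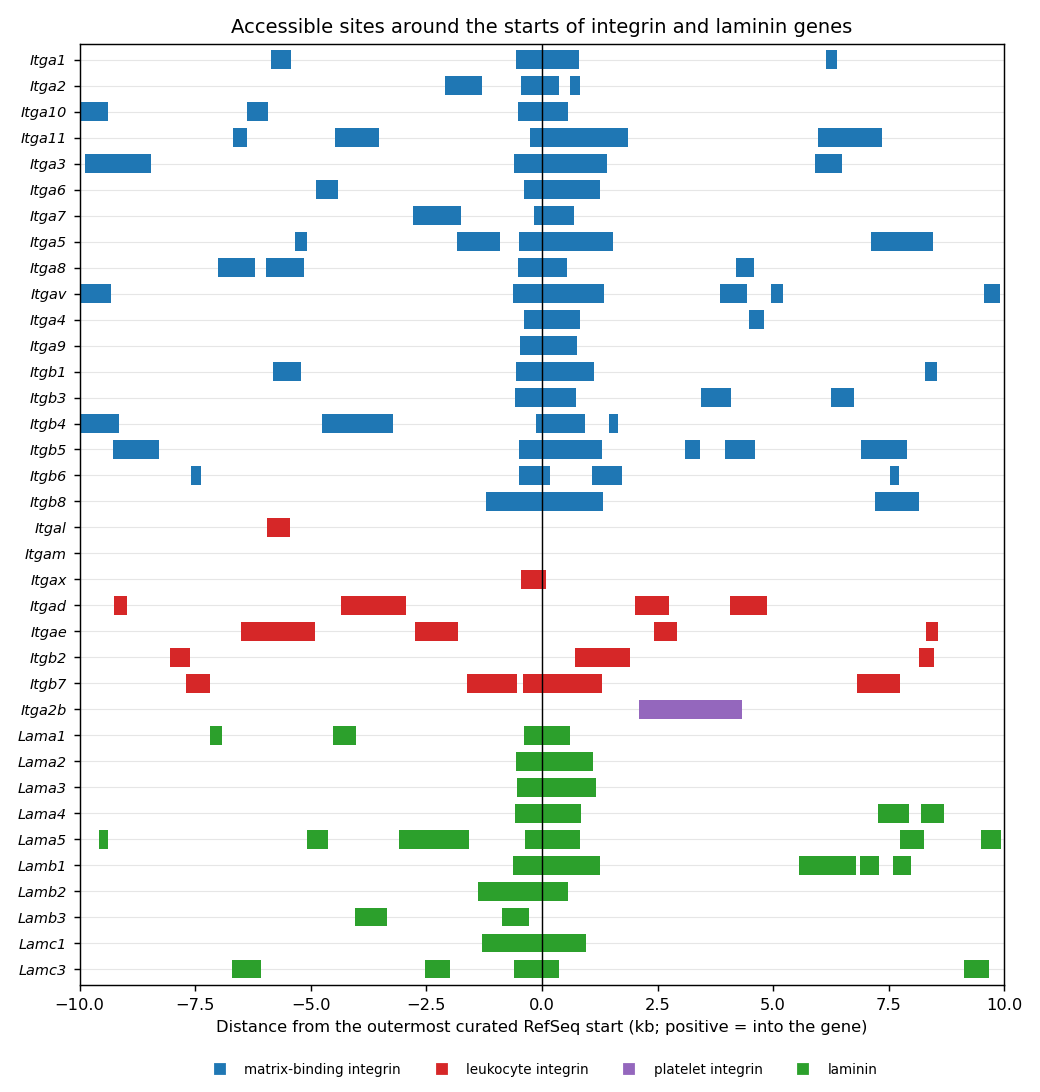
Accessible sites around the outermost curated RefSeq start of 36 of the 37 genes. Each row is a gene, each bar a site with its true width, and the horizontal axis gives the distance from the start in kb, positive into the gene; colours mark the 4 classes. A bar lies across the start in all 18 matrix-binding rows and in 9 of 10 laminin rows, but in 2 of 7 leukocyte rows.

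The promoter sequences of 5 genes are shown because they stand on either side of this contrast. They run from 250 bases before to 50 bases after the RefSeq start on the mouse build GRCm38, and 23 of the 37 genes had an entry in the table of promoters used here. Itgb1, Itga5 and Itgav are fibroblast receptors whose start lay inside a wide site. Itgax was covered, and Itgam had no site. Capitals mark exact matches, on either strand, to 5 short motifs: the AP-1 motif TGACTCA, the TEAD motif GGAATG, the GC box GGGCGG, the PU.1 motif GAGGAAGT and the RUNX motif TGTGGTT.
Itgb1 promoter, chr8:128685404-128685703, plus strand: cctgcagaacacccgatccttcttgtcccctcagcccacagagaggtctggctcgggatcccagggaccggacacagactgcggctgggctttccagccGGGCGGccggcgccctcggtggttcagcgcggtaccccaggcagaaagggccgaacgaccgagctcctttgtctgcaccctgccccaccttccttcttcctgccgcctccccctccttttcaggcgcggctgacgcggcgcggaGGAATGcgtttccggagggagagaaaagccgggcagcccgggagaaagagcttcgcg
Itga5 promoter, chr15:103366742-103367041, minus strand: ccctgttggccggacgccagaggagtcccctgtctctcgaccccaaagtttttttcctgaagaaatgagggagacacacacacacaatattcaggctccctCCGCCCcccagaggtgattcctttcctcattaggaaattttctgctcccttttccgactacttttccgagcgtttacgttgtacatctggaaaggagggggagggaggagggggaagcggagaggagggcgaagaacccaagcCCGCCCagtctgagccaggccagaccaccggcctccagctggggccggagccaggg
Itgav promoter, chr2:83724147-83724446, plus strand: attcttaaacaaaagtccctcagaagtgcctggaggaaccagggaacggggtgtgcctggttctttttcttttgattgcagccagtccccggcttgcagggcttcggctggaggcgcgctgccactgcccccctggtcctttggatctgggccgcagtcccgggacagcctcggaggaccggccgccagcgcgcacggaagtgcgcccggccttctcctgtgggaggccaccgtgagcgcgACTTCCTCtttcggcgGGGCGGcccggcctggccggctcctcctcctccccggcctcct
Itgax promoter, chr7:128129300-128129599, plus strand: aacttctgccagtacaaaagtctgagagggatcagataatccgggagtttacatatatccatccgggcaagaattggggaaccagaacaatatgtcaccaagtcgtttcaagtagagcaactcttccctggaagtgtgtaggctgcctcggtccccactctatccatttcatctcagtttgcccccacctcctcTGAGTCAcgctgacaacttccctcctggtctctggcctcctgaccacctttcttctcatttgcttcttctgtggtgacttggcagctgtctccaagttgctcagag
Itgam promoter, chr7:128062390-128062689, plus strand: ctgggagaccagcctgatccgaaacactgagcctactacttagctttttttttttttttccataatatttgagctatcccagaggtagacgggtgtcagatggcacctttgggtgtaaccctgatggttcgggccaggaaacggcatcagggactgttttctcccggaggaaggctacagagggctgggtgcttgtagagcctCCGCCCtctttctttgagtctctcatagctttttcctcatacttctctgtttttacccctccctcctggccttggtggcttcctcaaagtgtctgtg
The Itgb1 sequence held a GC box and a TEAD match and 27 CpG dinucleotides, and the Itgav sequence held a PU.1 match, a GC box and 24 CpG dinucleotides. Itga5 held 2 GC boxes and 13 CpG dinucleotides. Itgax held a single AP-1 match and 5 CpG dinucleotides, and Itgam held a single GC box and 6 CpG dinucleotides. These 5 promoters do not stand for their classes. Among other genes with a start inside a site, Itga10, Lamb2 and Lama2 held 6, 4 and 1 CpG dinucleotides, and Itgb5 and Lama5 held 20 and 24. The covered leukocyte gene Itgb7 held 5. The 23 genes had 26 promoters, with a pair each for Itga3, Itgb6 and Lamb3. A GC box was found in 12 of the 26 (46.2%) and an AP-1 match in 2 (7.69%, Itga9 and Itgax), whereas among all 32851 promoters tabulated a GC box was present in 35.7% and an AP-1 match in 5.2%. PU.1 matches occurred in 4 of 26 promoters (15.4%, Itga11, Itgav, Itgb6 and Itgb7), beside 3.2% of all promoters. TEAD matches occurred in 3 of 26 (11.5%, Itga10, Itgb1 and Lamb3), beside 14.7%, and a RUNX match in 1 (3.85%, Itga3), beside 5.27%. A match describes the letters only and is not evidence of binding.

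Among the alpha chains of the collagen receptors, the start site of Itga11, a receptor of fibrillar collagen in fibroblasts, was 2120 bp wide (chr9:62677591-62679710) and that of Itga1 1361 bp. Itga10, best known from cartilage, had a start site of 1093 bp, and Itga2, which is prominent on platelets and epithelia, one of 806 bp with a second site of 211 bp just inside the gene. All 4 were covered at their outermost start, but only Itga1 and Itga11 had a CpG-rich start. In their bodies, Itga1 held 18 sites, Itga11 13, Itga2 12 and Itga10 3, and per 100 kb of gene these counts were nearly equal for Itga1 (12.1), Itga2 (12.1) and Itga11 (12.2) and higher for the short Itga10 (15.8).

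The laminin receptor alpha chains Itga3, Itga6 and Itga7 all had CpG-rich starts. The site at the start of Itga3, the partner of Itgb1 in many adherent cells, was 2014 bp wide. Itga6, which pairs with Itgb1 or with Itgb4 of hemidesmosomes, was the only matrix-binding gene without a site at its outermost annotated start. Its curated start lay inside a site of 1645 bp (chr2:71786544-71788188). Of its 12 body sites, 6 had their middle in the first intron of its longest transcript, the site of 1645 bp among them. Itga7, the laminin receptor of muscle, had a start site of 860 bp and 3 body sites, none of which was away from an annotated start.

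The RGD receptor alpha chains had some of the widest and densest sites. Itga5, the fibronectin receptor, had a start site of 2026 bp (chr15:103365253-103367278) and a further site of 934 bp upstream whose middle held an AP-1 match. With 5 sites in 22.48 kb it reached 22.2 sites per 100 kb, above 94.9% of the genes of at least 10 kb. The start site of Itgav, the common partner of the RGD-binding beta chains, was 1981 bp wide and its 12 body sites came to 14.5 per 100 kb. Itga8, a receptor of nephronectin in kidney development, had a narrower start site of 1076 bp and 17 sites spread over 195.3 kb, or 8.7 per 100 kb.

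Itga4 and Itga9 form a group of their own with ligands such as fibronectin, VCAM1 and tenascin, and Itga4 is found on leukocytes as well as on mesenchymal cells. Both had a CpG-rich start inside a site, of 1208 bp in Itga4 and 1225 bp in Itga9. Their bodies were sparse. Itga9 had the lowest density of the matrix-binding class (16 sites in 294.3 kb, or 5.44 per 100 kb), with a stretch of 92.0 kb without any site, and Itga4 had 7.72 per 100 kb with a stretch of 43.4 kb.

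All 6 matrix-binding beta chains were covered at the outermost start. Itgb1, which pairs with most of the alpha chains above, had a start site of 1686 bp (chr8:128685086-128686771) and 6 sites in its body, or 12.6 per 100 kb. The widest start site of all 37 genes, 2539 bp, belonged to Itgb8, a receptor that activates latent TGF-beta. Itgb5 and Itgb3, the vitronectin receptors that pair with Itgav, had start sites of 1799 and 1325 bp and dense bodies, with 21 sites (17.5 per 100 kb) in Itgb5 and 11 (17.6 per 100 kb) in Itgb3. Itgb4 of hemidesmosomes had a start site of 1054 bp and 14.8 sites per 100 kb. Itgb6, an epithelial receptor, had the narrowest start site of the class (662 bp, chr2:60722429-60723090), no CpG-rich start and a site at only 1 of its 8 annotated starts, but 17 sites in its body, which came to 13.7 per 100 kb.

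The leukocyte integrin genes differed more from each other. Itgam, the alpha chain of the complement receptor of myeloid cells, had no site at any of its 6 annotated starts, and the nearest site lay 11320 bp upstream of the outermost. Its body nonetheless held 5 sites, of which 3 were in intron 12, 1 in intron 14 and 1 in exon 9, and the widest was 823 bp (chr7:128088909-128089731). Itgad, a chain of macrophage subsets, had no site at any of 5 starts and 7 sites in its body, the widest of 1401 bp in intron 2. This widest site and one of 268 bp lay upstream of the curated start of Itgad. Sites of 754 and 208 bp lay downstream of its longest coding transcript. The single start of Itgae, the chain that holds T cells to epithelial cadherin, had no site within 1 kb either. Of the 6 sites in its body, the widest by far, with 1533 bp, was the start site of Haspin, a kinase gene that begins within intron 26 of Itgae.

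Itgal, the alpha chain of the lymphocyte receptor for ICAM proteins, was counted as covered through 1 of its 6 annotated starts. That site of 844 bp (chr7:127308617-127309460) lay in intron 11, where a shorter transcript begins, and neither the outermost nor the curated start had a site within 1 kb. Itgax, the chain that marks dendritic cells, had a single narrow site of 531 bp over its start (chr7:128129105-128129635), the narrowest start site of the set. The site reached 89 bp into the gene and the other 99.6% of the body was without a site. Itgb2, the common beta chain of these receptors, had no site over its start but one of 1199 bp in intron 1 (chr10:77531075-77532273), whose middle held an AP-1 match, and 7 body sites in all, or 19.7 per 100 kb. Itgb7, the beta chain of gut-homing lymphocytes, had a site of 1715 bp over its start (chr15:102230639-102232353) and another of 1082 bp just upstream with an AP-1 match. With 5 sites in 15.95 kb it had the highest density of all 37 genes, 31.3 per 100 kb, above 99.3% of the genes of at least 10 kb, although 4 of the 5 were at annotated starts.

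Itga2b, the alpha chain of the platelet fibrinogen receptor, is an example of how transcript models decide a count. Of its 10 annotated starts 4 had a site, but all of these were internal, and neither the outermost nor the curated start did. The 2 sites involved were 2220 bp wide in intron 5 and 998 bp wide in exon 28, and no other site was found in the gene.

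Itgam, Itgax and Itgad lie side by side on chromosome 7 and are read in the same direction, with 11055 bp between Itgam and Itgax and 3718 bp between Itgax and Itgad. Over the 3 genes the site of Itgax was the only one at an annotated start. A coding gene model that begins 43 bp from Itgam and overlaps it, Gm49368, had no start site either, nor had Cox6a2, a muscle cytochrome oxidase gene within the annotated span of Itgad. Beyond Itgad, the next starts were covered by wide sites, of 2283 bp at Armc5 and 9130023H24Rik and of 1754 bp at Tgfb1i1, which encodes the focal adhesion adaptor Hic-5. Slc5a2, a kidney glucose transporter further on, had 3 sites of at most 460 bp at inner starts and none at its outermost. All genes other than Itgae itself that begin within 50 kb of it, Ncbp3, Haspin, P2rx5, Emc6 and Tax1bp3, had a site at the outermost start. So had Ctns, whose outermost start lies just beyond that distance, and the sites were 1194 to 1821 bp wide. The genes without a start site were thus next to genes with one.

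**Figure D2:**
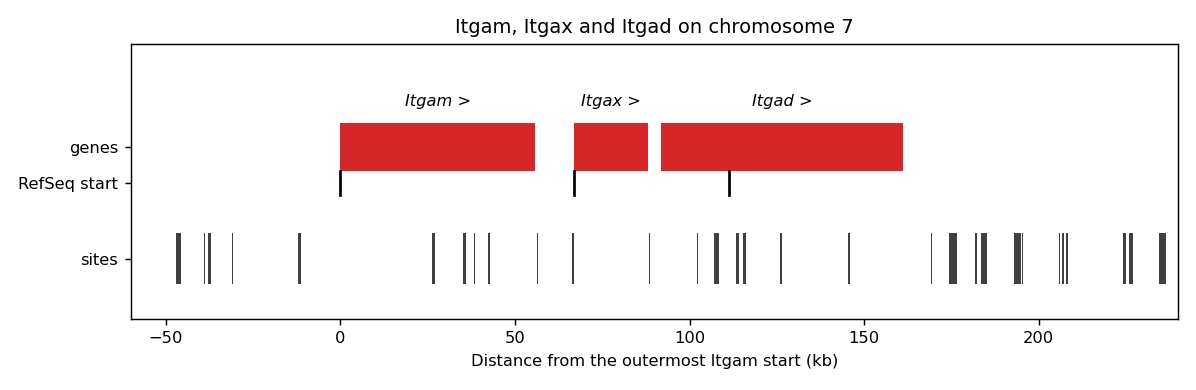
Map of the Itgam, Itgax and Itgad genes on chromosome 7, to scale. The horizontal axis gives the distance from the outermost Itgam start in kb. Red bars are genes read from left to right, black ticks are curated RefSeq starts and dark bars are accessible sites. Of the 3 starts only that of Itgax lies inside a site. The annotated spans of Itgam and Itgad hold 5 and 7 sites, and the widest in Itgad lies upstream of its curated start.

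All 5 laminin alpha chain genes had a site at a start, and at the curated start in each case. Lama1, of early embryonic basement membranes, had a start site of 1013 bp and a sparse body (5.58 sites per 100 kb). Lama2, the chain of muscle and nerve, was the longest gene of the set with 639.7 kb and had the most body sites, 32, which came to only 5.0 per 100 kb, and a stretch of 63.8 kb held none. Its start site of 1679 bp (chr10:27615830-27617508) covered the curated start and lay 2250 bp inside the outermost annotated one. Lama3, of epithelial basement membranes, had a start site of 1714 bp and 19 body sites, and 1 of its 2 curated starts was covered. Lama4, of vessels and mesenchyme, had a start site of 1431 bp and 6 of its 13 body sites in the first intron. Lama5, the most widespread alpha chain, had 11 sites in 49.49 kb, or 22.2 per 100 kb, and a start site of 1187 bp.

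Of the laminin beta chains, Lamb1 and Lamb2, which take part in most laminin trimers, had start sites of 1882 and 1944 bp. Lamb2 is only 10.79 kb long, and apart from its own start site, its body held a single site, at the start of the neighbouring Usp19. Lamb3 had narrower sites, 5 of at most 715 bp near its 9 annotated starts and none over a curated start. The site of 715 bp was also the widest start site of G0s2, a gene within the annotated span of Lamb3. Lamb3 had 18 body sites, of which 8 were in the first intron and 11 away from any annotated start. Lamc1, the gamma chain of most trimers, had the widest laminin start site (2242 bp, chr1:153331835-153334076), and 12 of its 13 body sites lay in the first intron, which makes up 60.9% of the gene. Lamc3 had a start site of 971 bp and 10 body sites, or 16.9 per 100 kb.

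Read as complexes, 21 of 24 textbook integrin pairs had a site at a start of both subunits. The 3 that lacked one were the pairs of Itgam and of Itgad with Itgb2, and of Itgae with Itgb7. With the outermost start alone, 17 of 24 pairs and 11 of 14 laminin trimers were complete, since Itga6, Itgal, Itga2b and Lama2 then lacked a site. These counts restate those of the single genes and are not separate, since Itgb1 enters 12 pairs, Itgav 5 pairs and Lamc1 10 trimers.

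The widest start site per gene had a median of 1343 bp in the matrix-binding class (662 to 2539 bp) and 1431 bp in the laminin class (715 to 2242 bp). It was 1022 bp in the 4 covered leukocyte genes (531 to 1715 bp), beside 1412 bp over all covered protein-coding genes. The site of 715 bp, counted for Lamb3, was also a start site of G0s2. Start sites of at least 2 kb occurred in 6 genes (16.2%), Itga3, Itga5, Itga11, Itgb8, Lamc1 and, at an internal start, Itga2b, beside 9.86% of all protein-coding genes and 12.2% of those of at least 10 kb.

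Because starts rich in CpG are open in most cell types, the genes were also divided by sequence. A start was called CpG-rich when a window of 500 bp within 1 kb of it had a GC content of at least 0.55 and an observed to expected CpG ratio of at least 0.65. This held for 24 of 37 genes (64.9%), a share between the 59.5% of all protein-coding genes and the 70.0% of those of at least 10 kb. The share was 15 of 18 in the matrix-binding class, 7 of 11 in the laminin class and 1 of 7 in the leukocyte class. A site was found at 23 of the 24 CpG-rich genes (95.8%), the same share as over all CpG-rich genes (95.8%) and close to the 96.5% of those of at least 10 kb, the exception being Itgad. Of the remaining 13 genes 11 (84.6%) had a site, beside 34.1% of all such genes and 46.9% of those of at least 10 kb. They comprised 3 of 3 matrix-binding genes (Itga2, Itga10 and Itgb6), 4 of 4 laminin genes (Lama2, Lama4, Lamb2 and Lamb3) and 4 of 6 leukocyte genes. These counts depend on the definition, and a looser one, with windows of 200 bp, a GC content over 0.5 and a CpG ratio over 0.6, placed 34 of 37 genes among the CpG-rich.

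All 37 genes had at least 1 site in the body, beside 77.1% of all protein-coding genes and 89.7% of those of at least 10 kb, and 366 sites in total. Numbers of body sites grew with gene length, and per 100 kb the median was 12.3 in the matrix-binding class (5.44 to 22.2), 11.4 in the laminin class (5.0 to 22.2) and 10.3 in the leukocyte class (4.74 to 31.3). Over all protein-coding genes it was 8.91, and over those of at least 10 kb 8.60. Each class median lay above the background, and the ranges of the 3 classes overlapped over most of their width. Leaving out sites within 1 kb of any annotated start, the medians were 9.09, 7.85 and 8.79 per 100 kb in the same order, beside 4.85 for the genes of at least 10 kb. The 37 genes were longer than this background (median 64.41 kb, beside 33.3 kb), which was not matched further for length. In the bodies, the leukocyte and matrix-binding medians differed by less than the genes within either class. Itga7, Itgax, Itga2b and Lamb2 had no body site away from annotated starts.

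**Figure D3:**
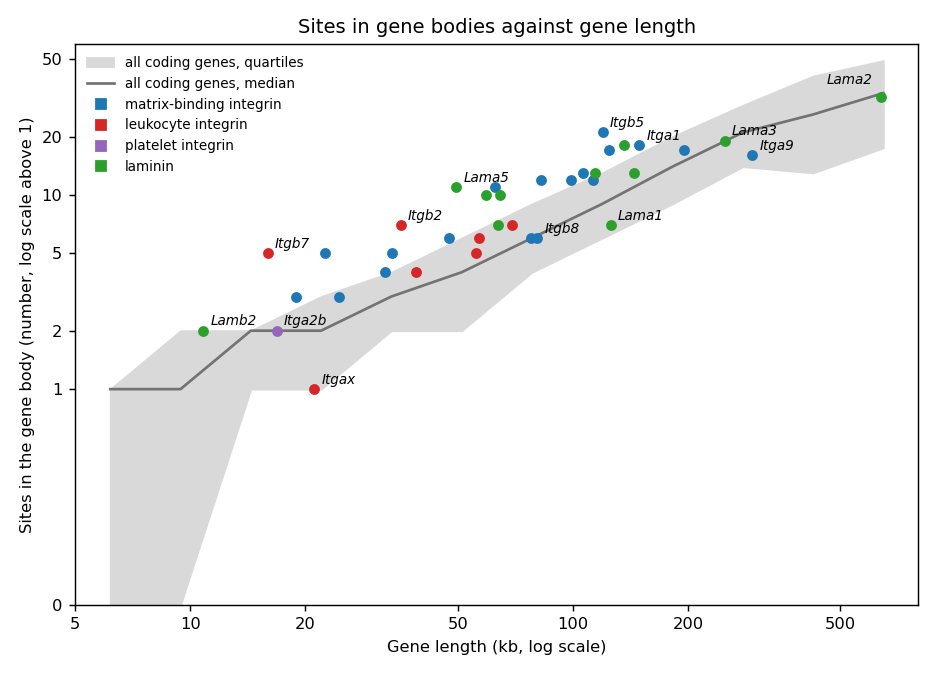
Number of sites in the body of each gene against its length in kb, both on log scales (the vertical axis is linear from 0 to 1). Points are the 37 genes coloured by class, the grey line and band give the median and the quartiles of all protein-coding genes in length bins; Lama2 has the most sites (32), Itgax the fewest (1), and Itgb7 stands high for its length with 5 sites in 15.95 kb.

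Of the 366 body sites, 309 (84.4%) had their middle in an intron and 34 (9.29%) in an exon of the longest transcript. The first intron held 79 (21.6%), where first introns make up 18.9% of the summed length of the genes. These counts include start sites whose middle fell in the first intron, such as those of Itga11, Itga5 and Itgb2. In the laminin genes the first intron held 26.1% of sites in 23.5% of the length, so that the many first-intron sites of Lamc1 were not shared by the class as a whole. Exonic sites were 7 of 35 in the leukocyte class, 19 of 187 in the matrix-binding class and 7 of 142 in the laminin class. Itgb7 alone held 3 of the 7 leukocyte ones. The share of exons in the gene length was not computed, so these counts are not compared between classes.

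Within 50 kb on either side, all 37 genes had a site, beside 90% of all protein-coding genes and 94.0% of those of at least 10 kb. The median number of flanking sites was 11.5 in the matrix-binding class (6 to 20), 13 in the leukocyte class (9 to 15) and 9 in the laminin class (4 to 15). It was 8 over all protein-coding genes and 9 over those of at least 10 kb. Flanks of neighbouring members hold body sites of one another, so sites of Itgam, Itgax and Itgad were counted repeatedly, as were some of Itga1 and Itga2. Itga3 and Itga5 had the most, 20 each, and Lama2 and Lama4 the fewest, 4 each. When sites within 1 kb of any start were left out, the leukocyte median fell to 7 and the matrix-binding median to 9, so that the order of these classes turned.

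**Figure D4:**
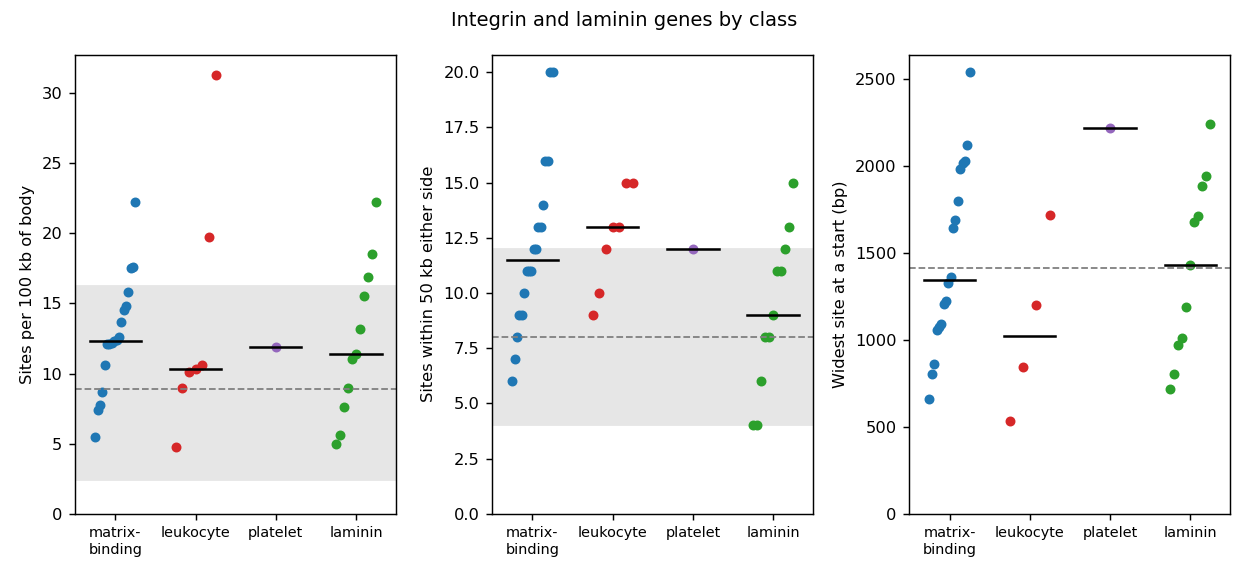
Sites per 100 kb of gene body, sites within 50 kb on either side, and width in bp of the widest site at a start, for the 18 matrix-binding, 7 leukocyte, 1 platelet and 11 laminin genes. Points are genes and black bars class medians; dashed lines are medians of all protein-coding genes and grey bands their quartiles (no band for width). The class ranges overlap in each panel, and only covered genes (4 of 7 in the leukocyte class) have a width.

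The motifs were searched in the 200 bp at the middle of each site. At the starts, a GC box was found in 16 of 59 sites of the members (27.1%), beside 28.9% of all sites at starts, and an AP-1 match in 8 (13.6%), beside 7.03%. By class, a GC box was found in 11 of 28 start sites of matrix-binding genes, in 4 of 21 of laminin genes and in 0 of 8 of leukocyte genes, where the AP-1 match occurred in 3 of 8. The 3 sites were those of Itgax, Itgb2 and the upstream site of Itgb7. A PU.1 match, the motif of a myeloid and lymphoid factor, was found in the middle of 0 of the 59 start sites. The share was 1.36% of all start sites, at which under 1 match would be counted among so few. Elsewhere in the start site, Itga11, Itgav and Itgb7 did hold a PU.1 match, the one counted above in their promoters.

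Of the 300 body sites away from all starts, 49 (16.3%) held an AP-1 match, the same share as all 127255 such sites of the genome (16.3%). A TEAD match was found in 65 (21.7%), beside 17.5%, and a RUNX match in 33 (11.0%), beside 8.84%. GC boxes (4.0%, beside 3.37%) and PU.1 matches (1.67%, beside 1.44%) were rare in both. AP-1 is a factor of growth factor and adhesion signalling, and TEAD proteins are the DNA-binding partners of the mechanosensitive coactivator YAP. The AP-1 matches were spread over 22 of the 37 genes, with 5 sites each in Itgb5 and Lama2 and 4 each in Itga8 and Lama3. The same count of genes was not made over all protein-coding genes. Such counts depend on the number of sites, and the body sites away from starts were 18 in Itgb5, 31 in Lama2, 16 in Itga8 and 18 in Lama3. Leukocyte genes had an AP-1 match in 6 of 27 sites (22.2%) and a RUNX match also in 6 of 27. RUNX matches were found in 14 of 155 such sites of matrix-binding genes and in 13 of 118 of laminin genes.

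Stretches of 100 bp around such matches are shown for 4 introns, on the strand of the gene and with the AP-1 match in capitals. The widest site of Lama2 away from starts (1453 bp, intron 37) held no match, so its widest site with a match is given instead. It and the other 3 stretches were chosen after the values had been seen, and among the 4 genes only Itgam had no site near a start.
Itgb5 intron 2, chr16:33863325-33863424, plus strand: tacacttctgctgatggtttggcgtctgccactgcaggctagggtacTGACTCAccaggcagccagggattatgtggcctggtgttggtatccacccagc
Lama2 intron 14, chr10:27249907-27250006, minus strand: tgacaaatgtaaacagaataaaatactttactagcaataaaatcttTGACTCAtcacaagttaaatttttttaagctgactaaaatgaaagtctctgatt
Itgam intron 12, chr7:128089290-128089389, plus strand: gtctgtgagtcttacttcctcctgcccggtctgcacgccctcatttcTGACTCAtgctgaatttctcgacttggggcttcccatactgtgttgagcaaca
Itgb2 intron 2, chr10:77542199-77542298, plus strand: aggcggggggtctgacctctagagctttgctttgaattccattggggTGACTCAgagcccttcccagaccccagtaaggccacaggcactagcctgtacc
The Itgb5 stretch lay in a site of 764 bp, that of Lama2 in a site of 1106 bp, that of Itgam in a site of 823 bp and that of Itgb2 in a site of 524 bp. Thus Itgam, which had no site at its start, held 2 body sites with an AP-1 match, and Itgb2 also held 2 away from its start. The middle of the Itgam site shown also contained a PU.1 match.

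Genes that link integrins to the cytoskeleton were covered throughout. Of 25 adaptor genes, among them Tln1 and Tln2 (talins), Vcl (vinculin), Ptk2 (focal adhesion kinase), Ilk, Pxn (paxillin) and Zyx (zyxin), 25 had a site at a start and 22 at the outermost start, beside 70.8% and 66.2% of all protein-coding genes (81.6% and 75.7% of those of at least 10 kb). The exceptions at the outermost start were Tln2, Lims2 and Src. These adaptors included blood cell members of their families, named here after their values were seen. Both Fermt3, the kindlin of haematopoietic cells, and Parvg, the parvin of leukocytes, had only narrow start sites (585 and 216 bp), compared to 2496 bp in Fermt2, the kindlin of mesenchymal cells, and 2106 bp in Parva. Other adaptors varied in width too, and the widest start site was 618 bp in Tln2, 998 bp in Actn4 and 1021 bp in Fermt1. All 10 partners and other receptors of laminin (Nid1, Nid2, Hspg2, Agrn, Dag1, Bcam, Ntn4, Sdc1, Sdc4 and Cd151) had a site at the outermost start, beside the same 66.2%.

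Markers of cell types were counted in the same way, against 70.8% of all protein-coding genes at any start and 66.2% at the outermost. All 12 fibroblast markers, such as Col1a1, Pdgfrb and Twist1, had a site at the outermost start. Of 12 leukocyte markers, 4 had a site at any start (Csf1r, Lyz2 and Coro1a among them) and only Lyz2 at the outermost, while Ptprc (CD45), Spi1 (PU.1), Cd3e, Cd4, Adgre1, Vav1, Lcp2 and Was had none. At any start, the platelet list had 1 of 6 (Gp9), the epithelial list 4 of 7 (Cdh1, Epcam, Krt8 and Cldn4) and the endothelial list 5 of 6 (all but Tie1). At the outermost start the counts were 1 of 6, 4 of 7 and 3 of 6. The leukocyte integrins had 4 of 7 at any start and 3 of 7 at the outermost, counts too small to be ordered against the 4 of 12 and 1 of 12 of the leukocyte markers.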

How the data were processed

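ATAC-seq was done by the authors on 10 libraries. According to their methods, reads were trimmed with Trim Galore, aligned with BWA to mm10, filtered with SAMtools as ENCODE recommends, merged over replicates with Picard and passed to MACS for narrow peaks. Versions, the MACS threshold, a Tn5 shift, blacklist removal and the joining of sites were not given in the sources used here, and each can change the number and width of sites. The deposited table lists chromosome, start and end of each site, with no count or score, so no test between samples was run, and the text gives counts and medians beside those of all protein-coding genes. The extract protocol in the labels describes chromatin immunoprecipitation, and the methods describe ATAC-seq.

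Starts in the list were taken as 0-based and ends as exclusive, and coordinates are printed 1-based. Genes came from GENCODE M21 on GRCm38, and curated transcripts, promoters and genome sequence from RefSeq on the same build. A site was assigned where it overlapped by at least 1 bp. Motifs were searched as exact letters on both strands. All genes of the families are counted and all but 1, which is not reported here by itself, are named, with the widest site at a start or the nearest one, and the genes that begin near members without a start site. The members, classes and lists were chosen with earlier results of these data known. Alternatives (other windows, starts, widths, distances and class borders) are in the closing section. The computations were tested on simulated sites and used Python 3.11.15, NumPy 2.4.6 and Matplotlib 3.10.9.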

Additional observations from a re-analysis of the deposited data

Results flagged for a closer look

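The list also held 242 sites on sequences other than chromosomes 1 to 19, X and Y, 0.157% of all sites. They were in no comparison, since the genes described are all on chromosomes, and no control level exists for them.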

How the results depend on the processing

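Of 92 values recomputed under other settings, 78 stayed within 1.5 times of the reported value, and 14 moved further. When a curated start had to lie inside a site, 2 of 7 leukocyte integrin genes were counted in place of 4. Across all settings the count for the leukocyte genes ranged from 2 (start inside a site) to 6 (window of 3 kb), and the matrix-binding class was complete except with the outermost start alone. When sites narrower than the median width (619 bp) were dropped, the sites per 100 kb fell to 6.45 in the matrix-binding, 3.58 in the leukocyte and 5.14 in the laminin class, and the flanking sites to 7, 8 and 5. Flanking sites were 7, 6 and 3 within 25 kb and 21, 24 and 17 within 100 kb, which follows from the distance, and the leukocyte median was 7 without sites at starts. The looser definition placed 34 genes among the CpG-rich, and the outermost start alone 21. Because the list carries no depth, absence of a site says only that none was called. No paired analysis was possible because single libraries have no values in the list.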
